A study of Mus musculus with 6 samples.

Results

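The genes described here are 39 genes of the amino acid branch of the integrated stress response and of the cytosolic tRNA synthetases. They were taken as the rows of the count table whose symbol equalled one of 48 listed spellings. The number of spellings is larger because 9 synthetases are listed under an older and a newer symbol. All 39 were found among the 16281 genes of the table, and all 39 passed the filter on low counts that left 11698 genes for testing.

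RNA of CD8+ T cells was sequenced in 3 vehicle (Veh) cultures and 3 cultures treated with 0.5 μM GSK2879552 (GSK), an inhibitor of the histone demethylase LSD1. All 6 cultures came from C57BL/6 mice that carry the OT1 T-cell receptor transgene Tg(TcraTcrb)1100Mjb, whose receptor recognizes an ovalbumin peptide. Every culture received plate-bound anti-CD3 at 2 μg/ml, soluble anti-CD28 and IL-2 at 20 ng/ml for 48 h, then IL-2 alone for 3 days, and GSK or vehicle was present throughout. The study's text names 3 separate OT1 mice and a figure legend gives 3 mice per group, without saying which cultures shared a mouse. The sample labels name the spleen, the design text also names lymph nodes, and no age of the OT1 mice is given in the labels. A polyclonal stimulus was used in place of the ovalbumin peptide, the inhibitor was given at 1 dose, and RNA was taken at 1 time.

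The integrated stress response starts when kinases such as GCN2, which senses uncharged tRNA, and PERK, which senses stress in the endoplasmic reticulum, phosphorylate the translation factor eIF2. General translation then slows while translation of the transcription factor ATF4 rises. ATF4 raises transcription of enzymes that make amino acids, of amino acid transporters and of tRNA synthetases, which join each amino acid to its tRNA. Activated T cells depend on this branch and on serine-derived one-carbon units while they grow and divide. Phosphorylation of eIF2 and the amount of ATF4 protein are not seen in RNA counts.

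Dimers of ATF4 with C/EBP proteins bind a composite element with the letters TGATGNAA, where N is any base. It was searched on either strand in the 250 bases before each transcription start listed by RefSeq on GRCm38.p6, so the matches below are letter matches and not measured binding. Of the 39 genes, 34 had a start in that table, with 38 starts in all, and 5 of these 38 windows held a match (13.2%) beside 1134 of 32851 for all starts listed (3.45%). The excerpts of 80 bases around these 5 matches are printed because their genes did not move together, with the match in capitals and each sequence read along the gene's strand. The capitals read TTGCATCA where the element lies on the other strand.
Asns, chr6:7693210-7693289, minus strand: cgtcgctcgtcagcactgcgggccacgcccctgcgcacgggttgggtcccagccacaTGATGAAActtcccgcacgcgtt
Pycr1, chr11:120643808-120643887, minus strand: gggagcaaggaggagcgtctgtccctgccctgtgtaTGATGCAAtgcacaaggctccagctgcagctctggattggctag
Got1, chr19:43524664-43524743, minus strand: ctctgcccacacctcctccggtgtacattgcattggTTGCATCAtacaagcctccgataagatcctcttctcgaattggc
Chac1, chr2:119351013-119351092, plus strand: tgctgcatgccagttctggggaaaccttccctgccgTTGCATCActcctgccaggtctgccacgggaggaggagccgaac
Aars, chr8:111033694-111033773, plus strand: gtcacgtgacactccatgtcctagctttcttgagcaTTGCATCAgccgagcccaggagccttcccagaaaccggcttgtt

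Of these genes, Asns (log2 fold change of GSK over Veh -0.35) and Pycr1 (-0.75) fell, Got1 rose (0.21), and Chac1 (-0.22) and Aars (0.05) did not pass the test. With the window extended to 50 bases after the start, 8 of the 38 windows held a match (21.1%), beside 3.97% of all windows of that length. The added genes were Iars, Trib3 and Yars, of which Trib3 fell. No match says only that the letters are not in this window.

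Expression values are CPM, in which each count is divided by its sample's TMM-scaled total, and a gene passed the test at a Benjamini-Hochberg adjusted p under 0.05 over all 11698 genes in edgeR's quasi-likelihood test. Of the 39 genes, 13 were lower in GSK (33.3%), beside 15.5% of all genes tested. Higher in GSK were 6 genes (15.4%), beside 16.6% of all genes tested, so the share that rose was close to the background. Past a fold change of 1.5 as well, Shmt1 was higher (1 gene, 2.56%, beside 2.22% of all genes). Stc2, Pycr1 and Sesn1 were lower past that fold change (3 genes, 7.69%, beside 4.09%). In 22 of the 39 genes the 3 GSK samples did not overlap the 3 Veh samples (56.4%, beside 46.7% of all genes). Of these, 7 had GSK above and 15 had GSK below, beside 2772 above and 2692 below among all 11698 genes tested. The median log2 fold change was -0.06 over the 39 genes and -0.004 over all genes tested. The median of the 39 ran from -0.084 to -0.011 with single samples left out, the value nearest 0 being that without GSK replicate 2, and was -0.041 without Veh replicate 2 or Veh replicate 3. The plot of every gene in every culture shows the widest spread of fold changes among the stress effectors, from log2 -1.26 to 0.42, and a narrow one among the synthetases, from log2 -0.18 to 0.10.

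**Figure D1:**
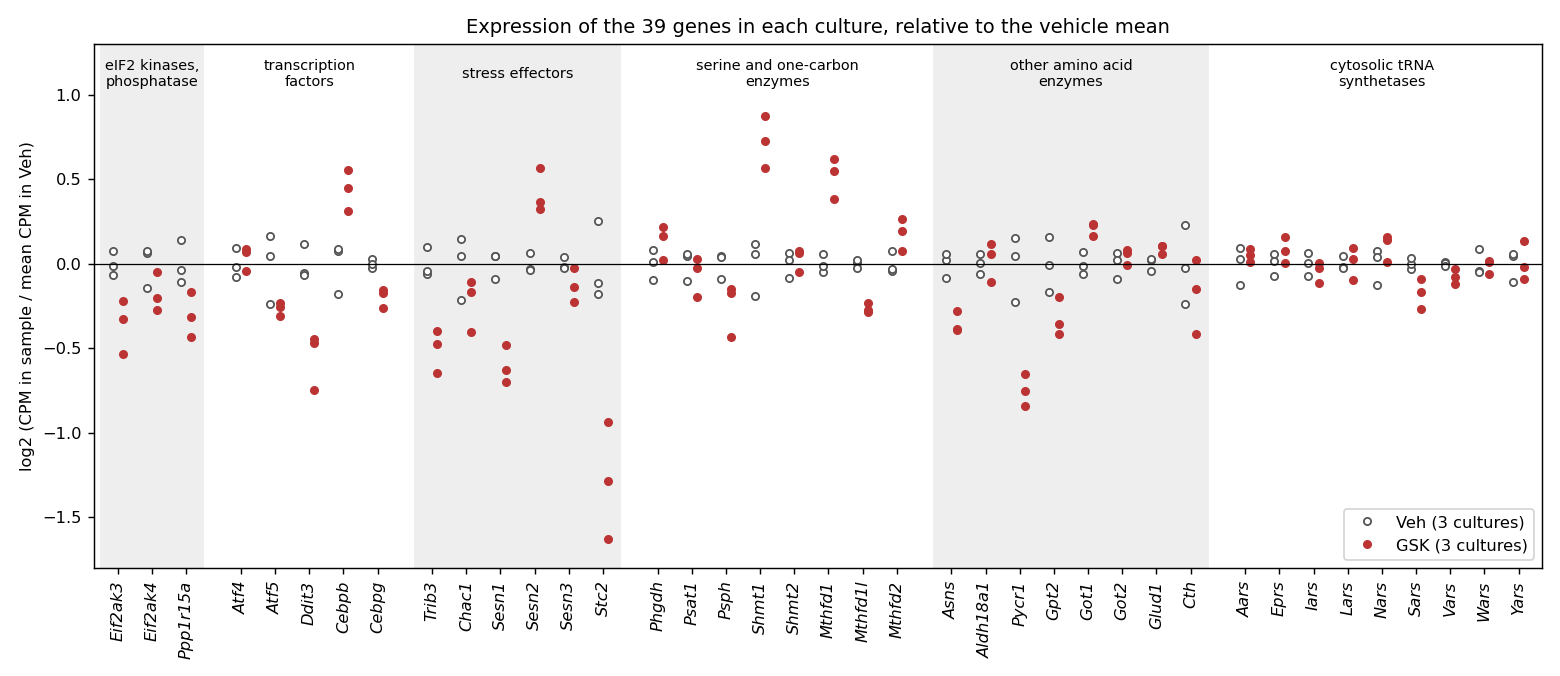
Log2 ratio of CPM in each culture to the mean CPM of the 3 Veh cultures (y axis) for each of the 39 genes, grouped by role (x axis), with open circles for Veh and red points for GSK. The 3 GSK points of Stc2 lie lowest, the highest single point is a GSK culture of Shmt1, while the points of most synthetases mix with those of Veh.

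The total counts of the 6 samples lay between 18288447 and 19846720, and TMM factors between 0.9906 and 1.006. CD8 T cell markers summed to between 4237 and 4465 CPM in each sample, and of these 8 markers Cd3g (log2 fold change -0.38), Cd3e (-0.23) and Cd3d (-0.16) fell and Thy1 (0.23) and Lck (0.13) rose. The 6 B cell markers summed to at most 7.94 CPM, the 6 measured myeloid markers to at most 15.6 CPM, the CD4 T cell and Treg markers Cd4 and Foxp3 to at most 5.46 CPM, the NK cell markers Ncr1 and Klrb1c to at most 3.73 CPM and the 5 erythroid markers to at most 0.365 CPM. None of the measured markers was at 0 in every sample, and none of the 7 tested outside the CD8 T cell list passed between GSK and Veh in edgeR, though 1 B cell and 1 myeloid marker were lower at an unadjusted p under 0.05. In bulk RNA, fewer cells that express a gene and less of its RNA per cell cannot be told apart. Replicates of a group differed by more than counting error in every pair. Divided by its degrees of freedom, the chi-square of their counts was 4.07 to 9.38, highest between GSK replicates 2 and 3. Single genes were tested only in the fit across all genes, because permuting 3 samples against 3 cannot give a two-sided exact p under 0.1.

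Of the 3 genes that set the phosphorylation of eIF2, Eif2ak3 and Ppp1r15a fell in GSK, and Eif2ak4 did not pass the test. Eif2ak3, which encodes the kinase PERK, stood at 145 CPM, 139 CPM and 154 CPM in the Veh samples and at 116 CPM, 125 CPM and 101 CPM in the GSK samples, with every GSK sample below every Veh sample. Its fold change was 1.28-fold lower (log2 -0.36, SE 0.07, adjusted p = 0.0042). Ppp1r15a, which encodes the phosphatase subunit GADD34 that restores eIF2, fell from 22.8 ± 2.1 CPM in Veh to 18.5 ± 1.7 CPM in GSK (SD, n = 3), with log2 -0.30 and an adjusted p of 0.027 by edgeR. The call for Ppp1r15a was lost without Veh replicate 1 (adjusted p = 0.13), without Veh replicate 3 (0.055) and without GSK replicate 3 (0.091). Eif2ak4, the GCN2 kinase, was at 32.3 ± 2.7 CPM and 28.7 ± 2.3 CPM, and its groups overlapped (95% interval of the log2 fold change -0.35 to 0.01). In the exon model used here 8.05% of the Eif2ak3 exon bases overlap a gene on the other strand.

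Among the 5 transcription factors, Atf4 itself did not pass the test. Of its dimer partners or targets, 2 fell (40% of the 5, beside 15.5% of all genes) and 1 rose (20%, beside 16.6%). Atf4 was at 364 CPM, 411 CPM and 381 CPM in Veh and at 409 CPM, 373 CPM and 404 CPM in GSK. The groups overlapped, and the log2 fold change of 0.04 had a 95% interval from -0.07 to 0.15 (adjusted p = 0.61, edgeR). At 223 CPM per kilobase of its principal transcript in Veh, Atf4 was the highest of the 5 by this length-scaled level, and Atf5 the lowest at 4.18 CPM per kilobase. Ddit3, which encodes CHOP, a factor linked to death of stressed cells, was at 19.5 CPM, 17.3 CPM and 17.2 CPM in Veh and at 13.2 CPM, 13.0 CPM and 10.7 CPM in GSK. All GSK samples lay below all Veh samples, 1.46-fold lower on the fitted scale (log2 -0.55, SE 0.11, adjusted p = 0.0019). Cebpg, a heterodimer partner of ATF4, fell from 62.8 ± 1.1 CPM to 54.8 ± 2.2 CPM (SD, n = 3), with log2 -0.20 and an adjusted p of 0.014 by edgeR, and the call was lost without Veh replicate 2 (0.051). Cebpb, another bZIP partner, was the 1 factor that rose, from 6.72 ± 0.69 CPM to 9.13 ± 0.76 CPM (log2 0.44, edgeR adjusted p = 0.024). Its call was lost without Veh replicate 1 (0.099), GSK replicate 1 (0.099) or GSK replicate 3 (0.055), and 20.7% of its exon bases overlap Tmem189 on the other strand. Atf5 was at 7.58 ± 1.05 CPM and 6.31 ± 0.17 CPM and did not pass (95% interval of the log2 fold change -0.57 to 0.05).

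The 6 stress effectors held the gene with the largest change among the 39 and 2 sestrins that moved in opposite directions. Stc2, which encodes the secreted glycoprotein stanniocalcin 2 and lies at chr11:31359441-31370061 on the minus strand of GRCm38.p6, was at 19.5 CPM, 18.7 CPM and 25.1 CPM in Veh. In GSK it was at 6.82 CPM, 8.65 CPM and 11.0 CPM, below every Veh sample. It fell 2.39-fold (log2 -1.26, SE 0.17, adjusted p = 0.00054, edgeR), a change larger in size than that of 98.3% of all genes tested. Trib3, a pseudokinase gene induced downstream of ATF4 and CHOP, was at 68.5 CPM, 76.5 CPM and 69.5 CPM in Veh and at 54.3 CPM, 51.4 CPM and 45.7 CPM in GSK. The groups did not overlap, and Trib3 was 1.42-fold lower in GSK (log2 -0.50, SE 0.07, adjusted p = 0.00022). Chac1, which encodes an enzyme that degrades glutathione, was at 7.02 ± 0.89 CPM and 6.03 ± 0.63 CPM with overlapping groups (95% interval of the log2 fold change -0.55 to 0.11).

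Sestrins are proteins that restrain mTORC1 through the GATOR complexes, Sesn1 being known as a p53 target and Sesn2 as an ATF4 target. Sesn1 (chr10:41810574-41908436, plus strand) was at 83.1 CPM, 75.6 CPM and 83.1 CPM in Veh and at 49.5 CPM, 57.7 CPM and 52.1 CPM in GSK. Every GSK sample lay below every Veh sample, and Sesn1 had the smallest p of the 39 genes (1.52-fold lower, log2 -0.60, SE 0.07, adjusted p = 4.0e-05, edgeR). Its fold change stood near the threshold of 1.5 and was under it without Veh replicate 1 (log2 -0.58), Veh replicate 3 (-0.58) or GSK replicate 1 (-0.55). Sesn2 was at 29.6 CPM, 31.7 CPM and 29.5 CPM in Veh and at 44.8 CPM, 37.9 CPM and 38.9 CPM in GSK. Here every GSK sample lay above every Veh sample, 1.34-fold higher (log2 0.42, SE 0.08, adjusted p = 0.0013). Sesn3 was at 80.9 CPM, 77.7 CPM and 77.4 CPM in Veh and at 71.4 CPM, 77.2 CPM and 67.3 CPM in GSK. GSK replicate 2 of Sesn3 lay just under the lowest Veh sample, and the difference did not pass (log2 -0.13, 95% interval -0.25 to -0.004, adjusted p = 0.11, edgeR), though it did without GSK replicate 2 (0.020). Scaled by transcript length, Sesn1 made up 62.2% to 65.3% of the summed sestrin CPM per kilobase in Veh and 47.9% to 53.4% in GSK. The share of Sesn2 was 17.3% to 19.5% in Veh and 26.2% to 32.4% in GSK, again with no overlap. That of Sesn3 was 17.3% to 18.2% in Veh and 19.1% to 20.3% in GSK, also with no overlap.

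**Figure D2:**
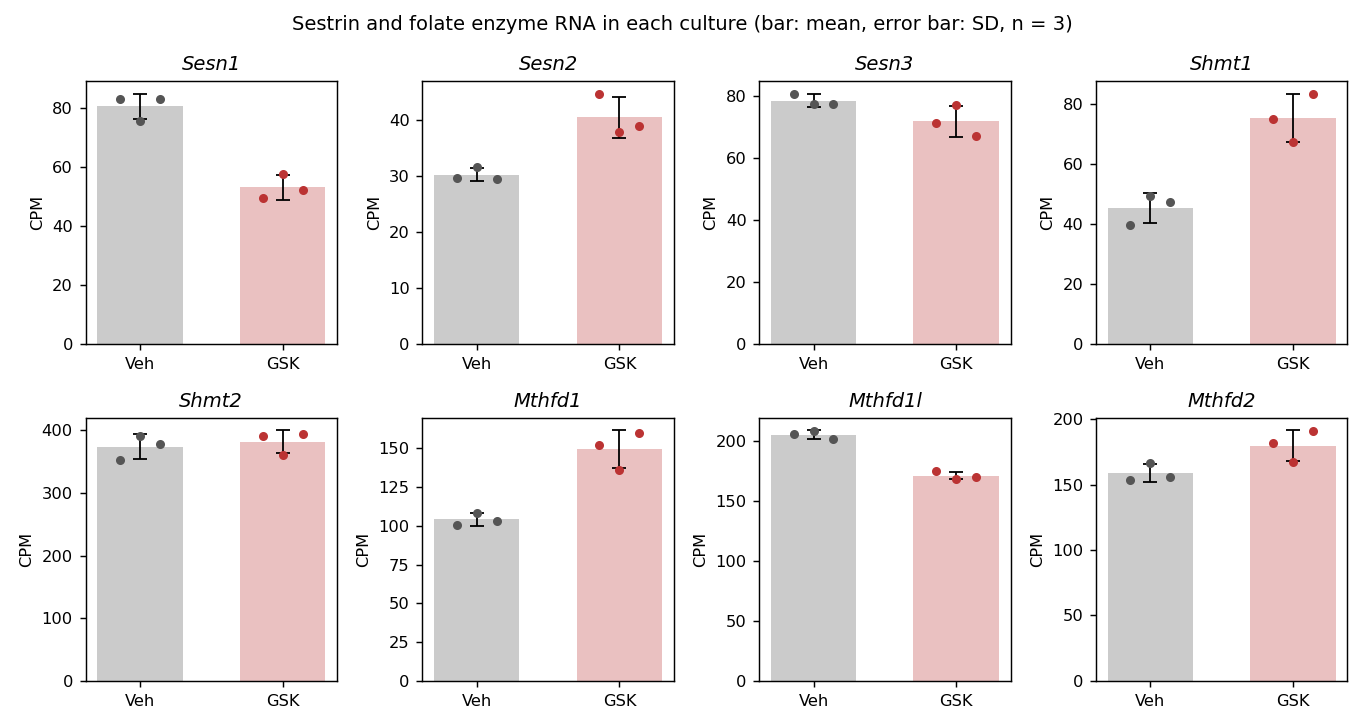
CPM (y axis, from 0) of 3 sestrin genes and 5 folate enzyme genes in the Veh and GSK cultures (x axis), with points for single cultures, bars for means and error bars for the SD of 3 cultures. Sesn1 and Mthfd1l are lower and Sesn2, Shmt1, Mthfd1 and Mthfd2 higher in all 3 GSK cultures. Sesn3 is also lower in all 3, in GSK replicate 2 by a narrow margin, while Shmt2 overlaps.

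Of the 8 serine and one-carbon enzymes, 3 were higher (37.5%, beside 16.6% of all genes) and 2 lower (25%, beside 15.5%) in GSK. The cytosolic enzymes Shmt1 and Mthfd1 had the largest changes of the group, and both rose. Shmt1, the cytosolic serine hydroxymethyltransferase (chr11:60788897-60811265, minus strand), was at 39.7 CPM, 49.2 CPM and 47.3 CPM in Veh and at 75.0 CPM, 67.4 CPM and 83.4 CPM in GSK. The lowest GSK sample stood well above the highest Veh sample, and Shmt1 was 1.66-fold higher (log2 0.73, SE 0.09, adjusted p = 0.00035, edgeR). Mthfd1, the cytosolic enzyme that interconverts folate-bound one-carbon units, was at 101 CPM, 109 CPM and 104 CPM in Veh and at 152 CPM, 136 CPM and 160 CPM in GSK. It did not overlap between groups and was 1.43-fold higher (log2 0.52, SE 0.06, adjusted p = 6.3e-05).

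The mitochondrial counterparts behaved differently from one another. Mthfd1l, which releases formate in mitochondria, was at 206 CPM, 209 CPM and 202 CPM in Veh and at 175 CPM, 169 CPM and 170 CPM in GSK. It was 1.20-fold lower with no overlap (log2 -0.26, SE 0.04, adjusted p = 0.0005, edgeR). Shmt2, the mitochondrial serine hydroxymethyltransferase, was at 374 ± 19 CPM and 382 ± 18 CPM and did not pass (95% interval of the log2 fold change -0.07 to 0.13). Mthfd2, the mitochondrial dehydrogenase and cyclohydrolase, rose from 159 ± 7 CPM to 180 ± 12 CPM (log2 0.18, edgeR adjusted p = 0.022), a call that was lost without Veh replicate 1 (0.089), Veh replicate 3 (0.084), GSK replicate 1 (0.092) or GSK replicate 3 (0.082). Per transcript length, Shmt1 made up 8.28% to 9.18% of the summed Shmt1 and Shmt2 level in the Veh samples and 13.0% to 14.5% in the GSK samples. Mthfd1 made up 35.7% to 37.2% of the summed Mthfd1 and Mthfd1l level in Veh and 47.8% to 51.7% in GSK.

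The enzymes that make serine from a glycolytic intermediate showed smaller differences. Phgdh, the first and committed step, was at 333 ± 21 CPM and 367 ± 25 CPM with overlapping groups (log2 0.14, 95% interval 0.01 to 0.26, adjusted p = 0.085, edgeR), and passed without Veh replicate 2 (0.049) or GSK replicate 2 (0.0086). Psat1, the transaminase of the next step, was at 335 ± 20 CPM and 320 ± 25 CPM (95% interval of the log2 fold change -0.20 to 0.07). Psph, the phosphatase of the last step, fell from 44.9 ± 2.3 CPM to 37.8 ± 4.0 CPM (log2 -0.25, edgeR adjusted p = 0.03). The Psph call was lost without any 1 of Veh replicate 2 (0.093), Veh replicate 3 (0.098), GSK replicate 1 (0.051) or GSK replicate 2 (0.083), and 10.4% of its exon bases overlap Cct6a on the other strand. Phgdh was the highest of the 8 genes in Veh at 176 CPM per kilobase and Shmt1 the lowest at 15.9 CPM per kilobase, and a pseudogene named for Phgdh, Phgdh-ps1, leaves the assignment of some of its reads uncertain.

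Of the 8 other amino acid enzymes, 3 fell (37.5%, beside 15.5% of all genes), 1 rose (12.5%, beside 16.6%) and 4 did not pass. Asns, the asparagine synthetase gene and a standard readout of ATF4 activity, was at 126 CPM, 137 CPM and 140 CPM in Veh and at 102 CPM, 103 CPM and 111 CPM in GSK. All GSK samples lay below all Veh samples (1.28-fold lower, log2 -0.35, SE 0.05, adjusted p = 0.00035, edgeR). Pycr1 (chr11:120638998-120643748, minus strand), which encodes a mitochondrial enzyme of the last step to proline, was at 9.68 CPM, 11.7 CPM and 12.6 CPM in Veh and at 6.72 CPM, 6.33 CPM and 7.20 CPM in GSK. It too did not overlap and was 1.68-fold lower (log2 -0.75, SE 0.13, adjusted p = 0.0011).

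Aldh18a1, the enzyme that opens the same route to proline, was at 172 ± 7 CPM and 175 ± 14 CPM and did not pass (95% interval of the log2 fold change -0.10 to 0.15). Gpt2, the mitochondrial alanine transaminase, fell from 19.5 ± 2.2 CPM to 15.6 ± 1.3 CPM (log2 -0.32, edgeR adjusted p = 0.029). Its call was lost without Veh replicate 2 (0.13), Veh replicate 3 (0.07), GSK replicate 2 (0.069) or GSK replicate 3 (0.066). Got1, the cytosolic aspartate transaminase, rose from 68.3 ± 3.1 CPM to 78.9 ± 2.2 CPM (SD, n = 3) with no overlap (log2 0.21, edgeR adjusted p = 0.0096). Got2, its mitochondrial counterpart, was at 263 ± 14 CPM and 271 ± 9 CPM (95% interval of the log2 fold change -0.06 to 0.15), with 9.00% of its exon bases overlapping a gene on the other strand and a pseudogene named for it, Got2-ps1. Glud1, glutamate dehydrogenase, was at 258 ± 7 CPM and 274 ± 5 CPM with GSK above Veh in every sample, and its adjusted p was 0.11 by edgeR. Cth, which makes cysteine from cystathionine, was the lowest of the 39 genes at 1.28 ± 0.21 CPM and 1.14 ± 0.17 CPM, and its interval was too wide to show a moderate change (log2 -0.83 to 0.48).

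**Figure D3:**
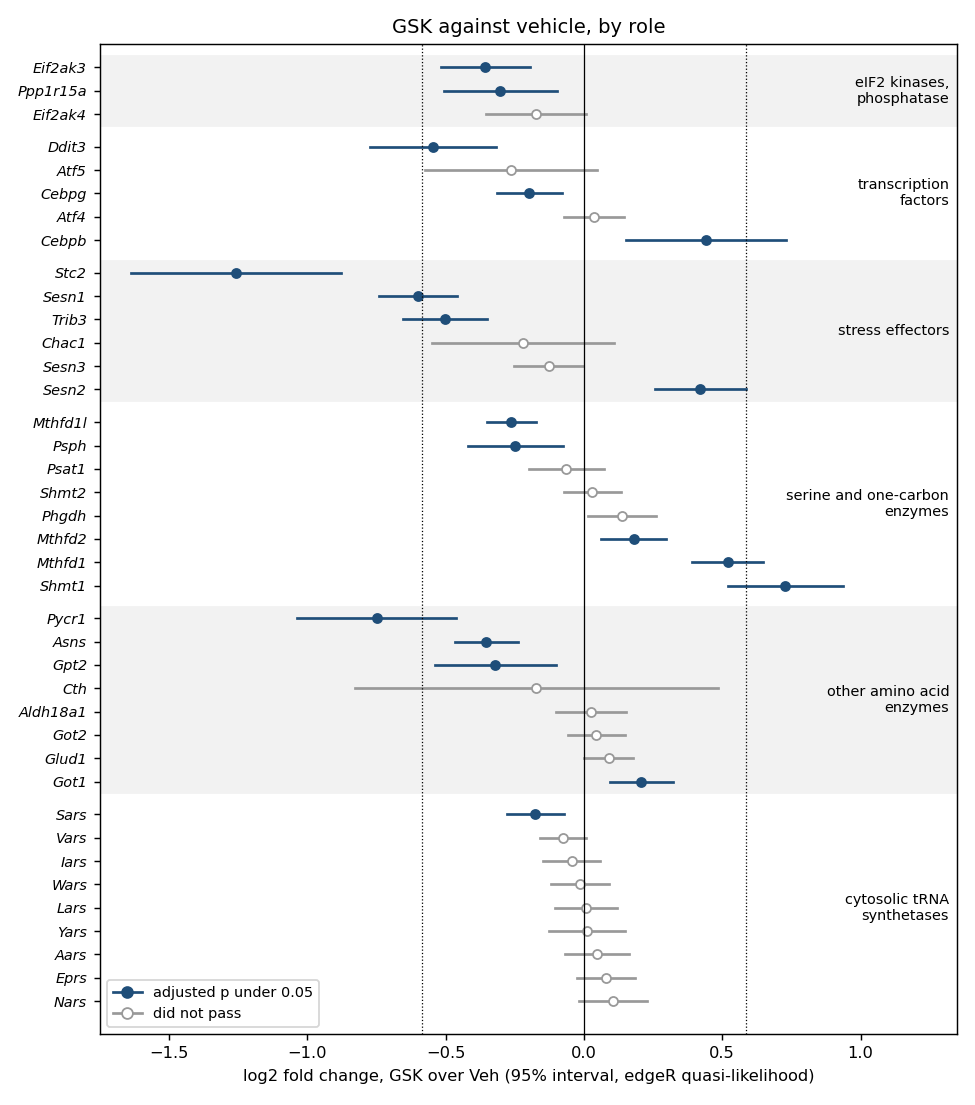
Log2 fold change of GSK over Veh (x axis) with its 95% interval for each of the 39 genes (y axis), ordered within role, with filled points past an adjusted p of 0.05 and dotted lines at a fold change of 1.5. Intervals are narrow and near 0 for the synthetases, with that of Sars wholly below 0. Among others, they lie wholly below 0 for Stc2, Sesn1, Trib3, Ddit3, Pycr1 and Asns. They lie wholly above 0 for genes such as Shmt1, Mthfd1, Sesn2, Got1, Cebpb and Mthfd2.

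Of the 9 cytosolic tRNA synthetases, Sars fell (11.1%, beside 15.5% of all genes), none rose (beside 16.6%) and the other 8 did not pass. Sars, the seryl-tRNA synthetase, was at 277 CPM, 283 CPM and 290 CPM in Veh and at 266 CPM, 235 CPM and 252 CPM in GSK. Its groups did not overlap (1.13-fold lower, log2 -0.18, SE 0.05, adjusted p = 0.014, edgeR), and the call was lost without Veh replicate 3 (0.066). Vars, for valine, also had every GSK sample below every Veh sample, at 372 ± 4 CPM and 353 ± 11 CPM, and did not pass (log2 -0.08, adjusted p = 0.15). Nars, for asparagine, had the largest positive estimate, at 293 ± 21 CPM and 315 ± 17 CPM (log2 0.10, 95% interval -0.02 to 0.23), and passed without GSK replicate 2 (adjusted p = 0.048, edgeR). Eprs, for glutamate and proline, followed at log2 0.08 (-0.02 to 0.19), and Aars, for alanine, at log2 0.05 (-0.07 to 0.16). Iars, Lars, Wars and Yars, for isoleucine, leucine, tryptophan and tyrosine, had estimates of -0.04, 0.01, -0.01 and 0.01.

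The intervals of these 8 genes all lay within 0.23 of 0 on the log2 scale. The median log2 fold change of the 9 synthetases was 0.01, and it took values from -0.03 to 0.06 when single samples were left out. Their summed level was 2151 CPM, 2323 CPM and 2263 CPM in Veh and 2269 CPM, 2138 CPM and 2300 CPM in GSK, so the groups overlapped. Veh replicate 1 was the lowest Veh sample for 6 of the 9 genes and GSK replicate 2 the lowest GSK sample for 8 of 9. These 2 samples also had the highest summed myeloid markers of their groups (15.6 CPM and 13.2 CPM, beside 9.96 to 11.4 CPM in the other 4). Their summed CD8 T cell markers (4324 CPM and 4465 CPM) and B cell markers (7.94 CPM and 6.88 CPM) were the highest of their groups too. The part of any of these in the synthetase levels was not tested. With both of these samples left out, an alternative chosen after the data were seen, the median was 0.01 and Sars still passed (adjusted p = 0.03, edgeR). In Veh, the level per kilobase ran from 37.0 CPM for Lars to 107 CPM for Nars, and 14.3% of the Aars exon bases overlap Exosc6 on the same strand.

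The other genes of the same machinery were taken from 8 lists, of which 105 of 107 listed and measured genes could be tested. Together 40 were higher (38.1%) and 10 lower (9.52%) in GSK, beside 16.6% and 15.5% of all genes tested, with a median log2 fold change of 0.11. The count of higher genes was 26 without GSK replicate 1. Of the 11 remaining cytosolic synthetases, 6 were higher (54.5%, beside 16.6% of all genes) and none lower, with 5 that did not pass. Among the 9 above, 0 were higher and 1 lower. The division into 9 and 11 came from how the lists were drawn up, with earlier results of these data known. The difference between the lists was not itself tested. At an unadjusted p under 0.05 in edgeR, 0 of the 11 were lower and 0 of the 9 higher. DESeq2 called 0 of the 11 lower. The log2 fold changes of the lists overlapped, from -0.18 to 0.10 for the 9 and from -0.09 to 0.36 for the 11. Without GSK replicate 1, 3 of the 11 were higher. Rars, for arginine, rose from 122 ± 6 CPM to 157 ± 8 CPM (log2 0.36, adjusted p = 0.00031, edgeR), and Farsb and Farsa, the subunits of the phenylalanine enzyme, rose by log2 0.35 and 0.22. In this list too GSK replicate 2 was the lowest GSK sample for 10 of 11 genes. Of the 3 scaffold genes of the multi-synthetase complex, Eef1e1 (log2 0.55, adjusted p = 0.00019) and Aimp2 (log2 0.23, adjusted p = 0.012) rose and Aimp1 did not pass (log2 0.04), and without Veh replicate 3 only 1 of the 3 passed.

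Among the 17 mitochondrial synthetases, 3 rose (17.6%), a share close to the 16.6% of all genes tested. Ears2 rose from 5.59 ± 0.79 CPM to 7.84 ± 1.59 CPM (log2 0.49, adjusted p = 0.046, edgeR), Rars2 by log2 0.22 and Tars2 by log2 0.18. No mitochondrial synthetase was higher under DESeq2, without Veh replicate 3 or without GSK replicate 1, while 6 were higher without GSK replicate 2, so that count was not stable.

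**Figure D4:**
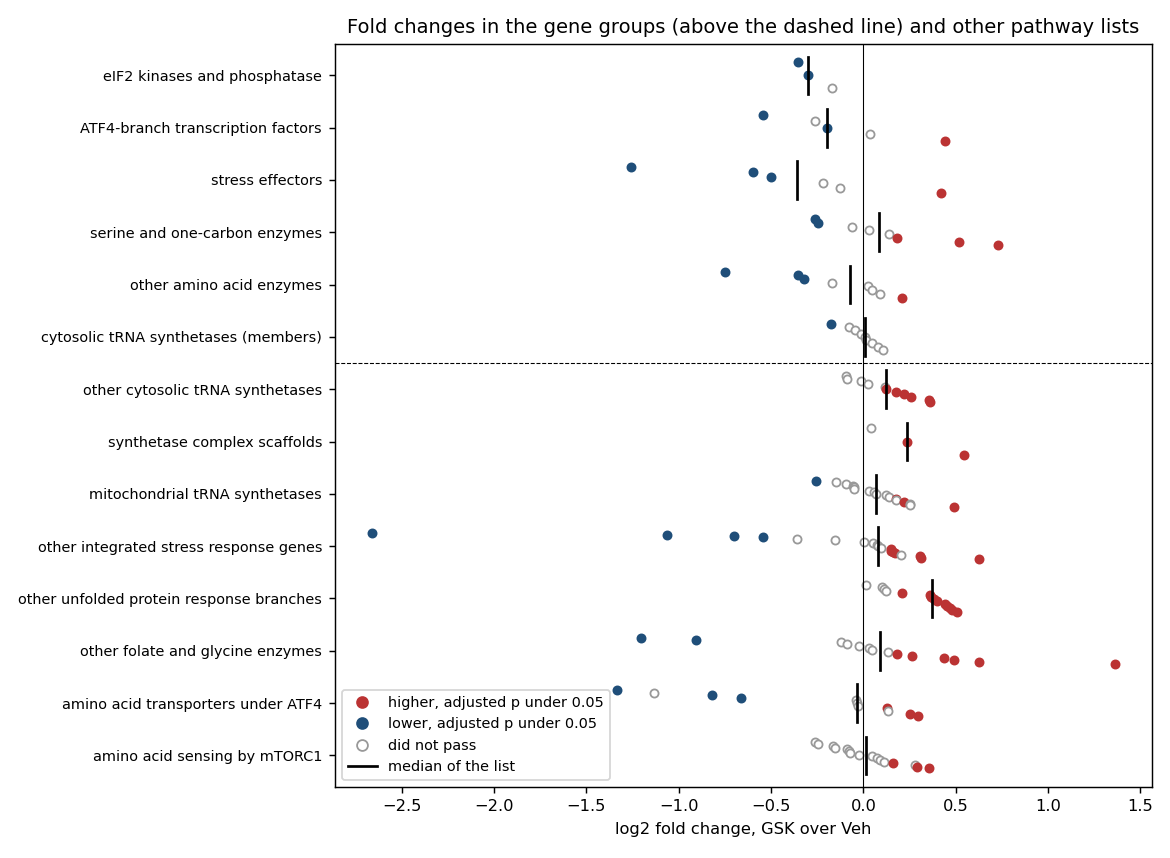
Log2 fold change of GSK over Veh (x axis) for every tested gene of the 6 groups above the dashed line and of the 8 other pathway lists below it (y axis), with red for higher and blue for lower at an adjusted p under 0.05, open circles for genes that did not pass, and a bar at each list's median. The unfolded protein response list has no gene below 0, while the integrated stress response, folate and transporter lists hold genes on either side.

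Of 19 tested genes on the list of other integrated stress response genes, 7 rose (36.8%, beside 16.6% of all genes) and 4 fell (21.1%, beside 15.5%). The count that rose was 3 without Veh replicate 1 or GSK replicate 1 and 4 without Veh replicate 3. The 3 with the smallest p among those that rose belong to translation initiation itself. Eif2b3, a subunit of the exchange factor that recharges eIF2, rose from 22.4 ± 0.9 CPM to 34.5 ± 1.2 CPM (log2 0.63, adjusted p = 5.3e-05, edgeR), Eif2s1, the phosphorylated subunit of eIF2, by log2 0.31, and Eif2b1 by log2 0.30. The 4 that fell are known as genes induced downstream of the kinases. Vldlr, a lipoprotein receptor gene, was at 6.36 CPM, 6.54 CPM and 6.83 CPM in Veh and at 1.05 CPM, 1.21 CPM and 0.834 CPM in GSK, 6.33-fold lower (log2 -2.66, SE 0.21, adjusted p = 3.4e-06). Ddit4, an mTORC1 inhibitor also called REDD1, fell from 256 ± 10 CPM to 157 ± 2 CPM (log2 -0.70, adjusted p = 4.3e-07). Eif4ebp1, a translation repressor, fell from 77.2 ± 3.6 CPM to 53.0 ± 5.1 CPM (log2 -0.54, adjusted p = 0.00011), and Nupr1, a stress-induced nuclear protein gene named here because it completes the 4, fell by 1.06 on the log2 scale (adjusted p = 0.0041). Fgf21 and Gdf15, secreted products of this response, were at or under 0.158 CPM in every sample and were not tested.

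The list for the other branches of the unfolded protein response held no gene that fell. Of its 14 genes, 10 rose (71.4%, beside 16.6% of all genes) and 4 did not pass, with a median log2 fold change of 0.37, and 0 were lower at an unadjusted p under 0.05 in edgeR or by DESeq2. Atf6, the sensor of its own branch, rose from 93.7 ± 2.8 CPM to 122 ± 0.9 CPM (log2 0.38, adjusted p = 7.1e-05, edgeR). Hyou1, a chaperone of the endoplasmic reticulum, was at 157 CPM, 172 CPM and 155 CPM in Veh and at 234 CPM, 206 CPM and 246 CPM in GSK (log2 0.51, adjusted p = 0.00021). Manf, a secreted protein of the same compartment, rose by log2 0.36. Eif2ak3 and Ddit3, which are counted in the PERK branch of the same response, were lower in GSK in every sample, as given above.

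Of 14 other folate and glycine genes, 6 rose (42.9%, beside 16.6% of all genes) and 2 fell (14.3%, beside 15.5%), and without GSK replicate 1 the counts were 3 and 1. Gcsh, the carrier protein of the glycine cleavage system, rose from 30.0 ± 3.7 CPM to 46.3 ± 5.3 CPM (log2 0.63, adjusted p = 0.0011, edgeR). Mtrr, which reactivates methionine synthase, rose by log2 0.44 and Slc25a32, the mitochondrial folate carrier, by log2 0.49. The 2 that fell were low, Aldh1l2, the mitochondrial enzyme that oxidizes formyl-folate, from 2.52 ± 0.58 CPM to 1.09 ± 0.47 CPM (adjusted p = 0.013) and Amt, another part of the glycine cleavage system, from 2.75 ± 0.48 CPM to 1.46 ± 0.71 CPM with overlapping groups (adjusted p = 0.044). Of these 2, only 1 was lower under DESeq2 or without any 1 sample other than GSK replicate 2.

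Amino acid transporters split evenly, with 3 of 11 higher and 3 lower (27.3% each, beside 16.6% and 15.5% of all genes). The 3 that rose were at a high level: Slc7a5, the light chain of the large neutral amino acid transporter LAT1, went from 392 ± 29 CPM to 482 ± 37 CPM (log2 0.30, adjusted p = 0.0069, edgeR), Slc7a1, which carries arginine and lysine, rose by log2 0.25 and Slc38a1, which carries glutamine, by log2 0.13. The 3 that fell were at a low level: Slc43a1 went from 4.36 ± 0.37 CPM to 1.72 ± 0.19 CPM (log2 -1.33, adjusted p = 0.00052), Slc7a3 from 12.9 ± 2.1 CPM to 7.31 ± 0.22 CPM, and Slc6a9, a glycine transporter, from 9.31 ± 0.25 CPM to 5.88 ± 1.74 CPM. Of 16 genes through which amino acids reach mTORC1, the complex the sestrins restrain, 3 rose (18.8%, close to the 16.6% of all genes) and none fell, with 2 lower at an unadjusted p under 0.05 in edgeR and 0 lower by DESeq2. Those that rose were the GATOR2 subunit Sec13 (log2 0.29, adjusted p = 0.0012), the GATOR1 subunit Nprl3 (log2 0.35, adjusted p = 0.013) and the Rag GTPase Rragc (log2 0.16, adjusted p = 0.029), of which 1 was left without Veh replicate 3, and Mtor itself had a log2 fold change of 0.09 that did not pass.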

How the data were processed

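Deposited values were whole-number counts of reads per gene, not normalized. The authors trimmed reads of stranded, polyadenylated RNA libraries with Trimmomatic, mapped them to GRCm38 with HISAT2 (version 2.1.0) and counted them with HTSeq (version 0.11.2). The annotation release and strand setting are not given in the sources used here, so counts of genes with overlapping exons are uncertain. Of the genes described here, 13 have exon bases that overlap another gene. The share is given above only for the 5 genes where it exceeds 5%. Below that threshold, the overlap with genes on the other strand was 4.74% for Shmt1, 4.73% for Ddit3 and 4.11% for Atf5.

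The 6 samples were compared by the robust quasi-likelihood test of edgeR (version 4.0.16, R version 4.3.3) after filterByExpr and TMM scaling, with Benjamini-Hochberg adjustment over 11698 genes. The thresholds were an adjusted p of 0.05 and, as in the study, a fold change of 1.5. Standard errors came from the test statistic. The test was checked on simulated counts. Depth was 18288447 to 19846720 counted reads per sample, and p-values set the difference between GSK and Veh against the spread between these cultures.

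The members and lists were chosen with earlier results of these data known. Values in every sample are given for genes past both thresholds, the 6 next smallest p, Atf4, Ddit3, Asns and the sestrins. From each pathway list at most 3 genes per direction are named by p. Other names, and the per-sample values of Eif2ak3, Sars, Vldlr and Hyou1, were chosen after their values were seen. Lengths are of the longest principal transcript in GENCODE M21, and coordinates and promoters are from RefSeq on GRCm38.p6. Alternatives were DESeq2 (version 1.42.0), RLE factors, other filters, the replicate number as a block, and samples left out. Same-numbered samples correlated in their deviations from the group means by -0.05, -0.08 and 0.16, so the numbers were not taken as pairs. A pairing of the cultures in another order was not tested. A gene that the naming rule for the pathway lists selects is not reported here.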

Additional observations from a re-analysis of the deposited data

How the results depend on the processing

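Under DESeq2, RLE factors, no filter on low counts and a filter of at least 1 CPM in 3 samples, 6 of the 39 genes were higher and 13 lower, as in the values reported. With the replicate block, 5 were higher and 12 lower, Mthfd2 (adjusted p = 0.054, edgeR) and Gpt2 (0.059) no longer passing, and no other gene of the 39 changed its call. With single samples left out, 4 to 8 were higher and 9 to 12 lower. Over all genes tested, the counts in these settings ran from 1288 to 2090 higher and from 1281 to 2013 lower. They were 1941 and 1819 with all samples, and 1703 and 1600 with the replicate block. Leaving out Veh replicate 1 and GSK replicate 2 together gave 5 higher and 11 lower, beside 1792 and 1699 over all genes tested. That setting was chosen after seeing the data, as the counts for the pathway lists were. Of the 39 genes, 11 passed under all 12 alternatives. These were Sesn2, Shmt1 and Mthfd1, which rose, and Eif2ak3, Ddit3, Trib3, Sesn1, Stc2, Mthfd1l, Asns and Pycr1, which fell. The log2 estimates of genes that did not pass took either sign with single samples left out, from -0.0012 to 0.086 for Atf4, -0.0099 to 0.069 for Shmt2, -0.026 to 0.087 for Aldh18a1, -0.012 to 0.095 for Aars, -0.035 to 0.058 for Lars, -0.037 to 0.032 for Wars, -0.055 to 0.059 for Yars and -0.033 to 0.058 for the median of the 9 synthetases. The count of higher pathway genes ran from 26 without GSK replicate 1 to 45, and without that sample the higher genes among all tested fell from 1941 to 1288. The causes were not tested. At this depth the counts of Cth, Chac1, Atf5 and Cebpb leave wide intervals. Those of Stc2 (log2 -1.64 to -0.88) and Pycr1 (-1.04 to -0.46) were also wide. The intervals of Pycr1, Sesn1 (-0.74 to -0.46) and Shmt1 (0.52 to 0.94) included fold changes smaller than 1.5.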
